A study of Mus musculus with 221 samples.

Results

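Alternative splicing is set in part by RNA-binding proteins whose amounts differ between tissues, and 10 genes for such proteins were followed across the endothelial-to-hematopoietic transition (EHT) of the mouse embryo: Ptbp1, Ptbp3, Rbfox2, Mbnl1, Mbnl2, Celf1, Qki, Tra2a, Tra2b and Arglu1. They were chosen by symbol and account for 116 of the 278369 annotated transcripts and 10 of the 78317 genes that were quantified. The full-length cDNA of sorted single cells, made with the Smart-seq2 protocol, was read on a nanopore instrument, so that a read can carry the exons of 1 transcript from end to end. The study judged the coverage of these reads, lower than that of its short-read data, too thin for robust work on isoforms. The comparison asks how hemogenic endothelium (HE), the endothelium from which blood cells emerge, differs between the aorta-gonad-mesonephros region (AGM) inside the embryo and the yolk sac (YS). From these reads the study does report a global shift to higher isoform entropy, a more balanced use of several isoforms, in the HE of the AGM.

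The 208 cells with at least 17595 estimated counts were kept. HE-AGM is made up of cluster c3, labelled early (29 kept cells), and c4, labelled late (20). HE-YSA, the YS population that the study links to the arterial side and to lymphomyeloid progenitors (LMP), is made up of a1 (early, 23) and a2 (late, 29). HE-YSP, linked to the YS plexus and to erythromyeloid progenitors (EMP), is made up of b2 (early, 25) and b3 (late, 24). The cells further along are c5 of the AGM trajectory, labelled HE-Hb (21), p1, the LMP-skewed YS progenitors (17), and p2, the EMP-skewed ones (20). All cells were primary and untreated and came from embryos of Gfi1-GFP or Runx1b-RFP reporter males on a C57BL/6JOlaHsd background crossed to CD-1 females, so every group carries a reporter allele of a gene of this process. The AGM HE was sorted as RUNX1+ KIT- and the YS HE as RUNX1+ KIT+, both without CD41 and CD45, so the gates differ between the tissues. The kept HE-YSA cells were 2 of E9, 14 of E9.5, 35 of E10.5 and 1 with no stage in its label, and the HE-YSP cells were 16, 13 and 20 of these stages; for 48 of the 49 HE-AGM cells the label gives none. AGM and YS cDNA came from different projects, apart from 3 YS-labelled cells with an AGM project or library name, so tissue and cDNA project cannot be told apart.

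Each of these proteins binds a short motif near an exon and raises or lowers the use of that exon. PTB proteins mostly repress exons with pyrimidine-rich flanks, RBFOX, MBNL, CELF and QKI proteins act either way depending on whether they sit before or behind the exon, and TRA2 proteins bind GAA-rich exons and promote their use. Several of the genes also regulate their own RNA through an exon or intron that brings in an early stop codon; such transcripts are degraded by nonsense-mediated decay (NMD) or kept in the nucleus and are not translated into the full protein.

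Kept HE-AGM cells had a median total of 59311 estimated counts, those of HE-YSA 34483.5 and those of HE-YSP 33297. The 3 nanopore runs each held cells of every cluster. No embryo is named for any cell, so each cluster counts as 1 sample and no test was possible. Values are also given within the 3 runs. Each cell was read in 1 run only, so the runs are separate sets of cells and not repeated measures of the same cDNA. The 95% intervals below (exact Poisson for levels, exact binomial for shares, conditional on the sum for ratios) cover counting error only. The 6 endothelial markers (Cdh5, Pecam1, Kdr, Tek, Esam and Emcn) summed to 1829 CPM (counts scaled to the same library total) in c3, 1569 in a1 and 1646 in b2, to between 802 and 876 in the 3 late HE clusters and to between 252 and 478 in c5, p1 and p2. Vwf, a marker of HE-AGM and HE-YSA in the study, stood at 504 CPM in c3 and 246 in a1 against 3.53 in b2, while Lyve1, its marker of HE-YSP, stood at 911 in b2 and at no more than 2.88 in c3 and c4. The blood, megakaryocyte and erythroid marker lists each had their highest sum in an AGM cluster. The 4 of the blood list (Ptprc, Myb, Itga2b and Spi1) summed to 231 CPM in c3 and 445 in c4 against 46.4, 142, 79.9 and 143 in a1, a2, b2 and b3, where Ptprc was at 0. The 4 megakaryocyte markers summed to 187 and 352 CPM in c3 and c4 against at most 63.5 in a YS cluster. Gp5 was at 0 in all 9 clusters, and Pf4 and Gp9 were also at 0 in c4, where Itgb3 alone made up the sum. The erythroid markers summed to 351 in c3 against at most 67.0 in any other cluster. Macrophage markers ranged from 0 to 121 CPM with the highest sum in b2, mesenchyme markers from 0 to 172 with the highest in c5, YS endoderm markers from 0 to 9.75 and neuron markers from 0 to 33.5. The mesenchyme sum of c5 came from Dlk1 alone, with Pdgfra, Ptn and Col1a1 at 0. Whether such cells were present, and their part in the differences between HE-AGM and the YS populations, was not tested.

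All 10 regulators had more CPM in HE-AGM than in either YS population. Of all genes tested, 58.0% had a log2 ratio above 0 against HE-YSA and 59.1% against HE-YSP. Against HE-YSA, 5 of 10 were more than 2-fold higher and none lower, where 41.3% of the 8968 genes with at least 50 counts in the 2 populations together were past 2-fold in either direction, 2629 of them higher and 1077 lower. These 5 were Celf1 (log2 ratio 1.76), Mbnl1 (1.53), Rbfox2 (1.43), Arglu1 (1.40) and Qki (1.23). Against HE-YSP, 4 of 10 were more than 2-fold higher and none lower, where 44.3% of 8803 genes were past 2-fold (2741 higher, 1162 lower): Celf1 (2.48), Arglu1 (2.00), Tra2a (1.30) and Rbfox2 (1.27). Both comparisons share the HE-AGM cells. The members' median log2 ratio was 1.00 against HE-YSA and 0.63 against HE-YSP, beside 0.25 and 0.30 over all genes tested. Between HE-YSP and HE-YSA 0 of 10 were past 2-fold, where 13.1% of 6587 genes were, and the median of the members was 0.08 beside 0.01 over all genes. Ratios here and below are of CPM from summed counts with 0.5 counts added to each group.

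**Figure D1:**
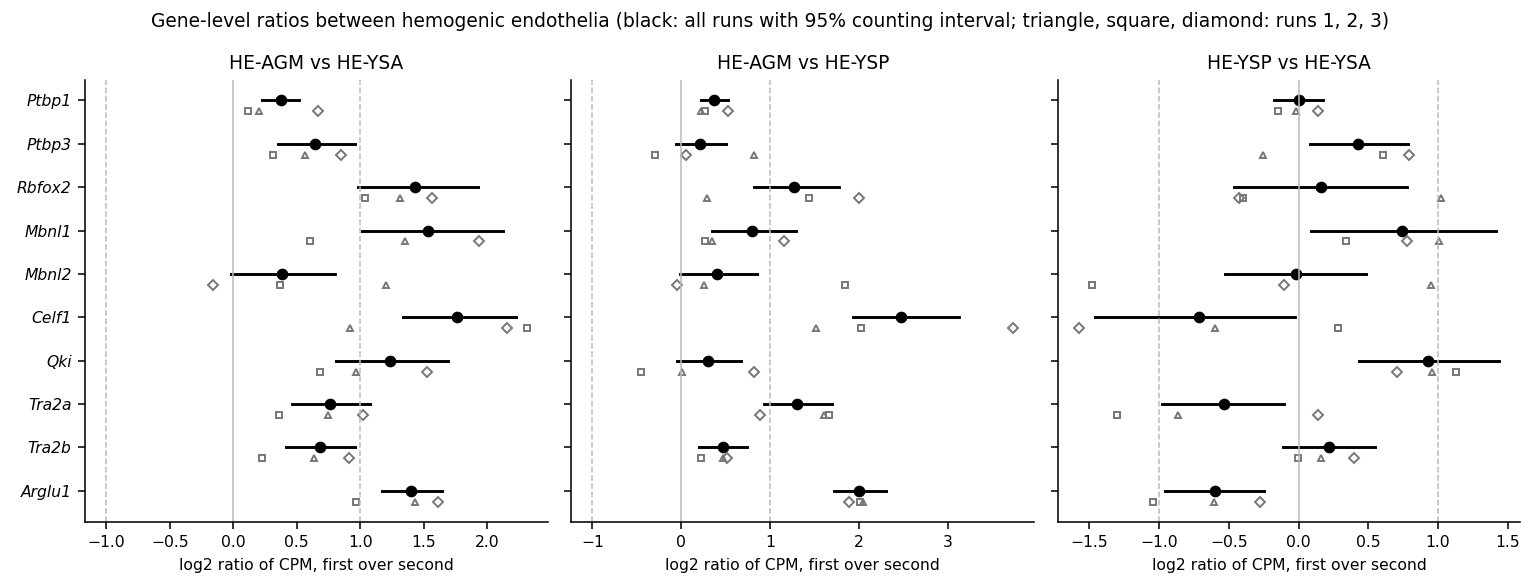
Log2 ratio of CPM (first over second population) for the 10 genes in 3 comparisons of hemogenic endothelia. Black points with bars give all runs with 95% counting intervals, open triangles, squares and diamonds give nanopore runs 1, 2 and 3, and dashed lines mark 2-fold. All black points of both comparisons with HE-AGM lie to the right of 0, and no black point of HE-YSP against HE-YSA lies past 2-fold.

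The AGM cells were the deeper ones, so the ratios were also taken from cells with totals between 30000 and 60000 only. Against HE-YSA, Rbfox2 (1.99), Celf1 (1.06) and Arglu1 (1.04) were then past 2-fold while Mbnl1 (0.99) and Qki (0.57) were not, which makes 3 of the 5. Against HE-YSP, Celf1 (1.80), Arglu1 (1.61) and Tra2a (1.25) were, and Rbfox2 (0.88) was not. With only the YS cells labelled E10.5, Tra2a joined the 5 genes past 2-fold against HE-YSA (1.30), and the 4 against HE-YSP kept their call.

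**Figure D2:**
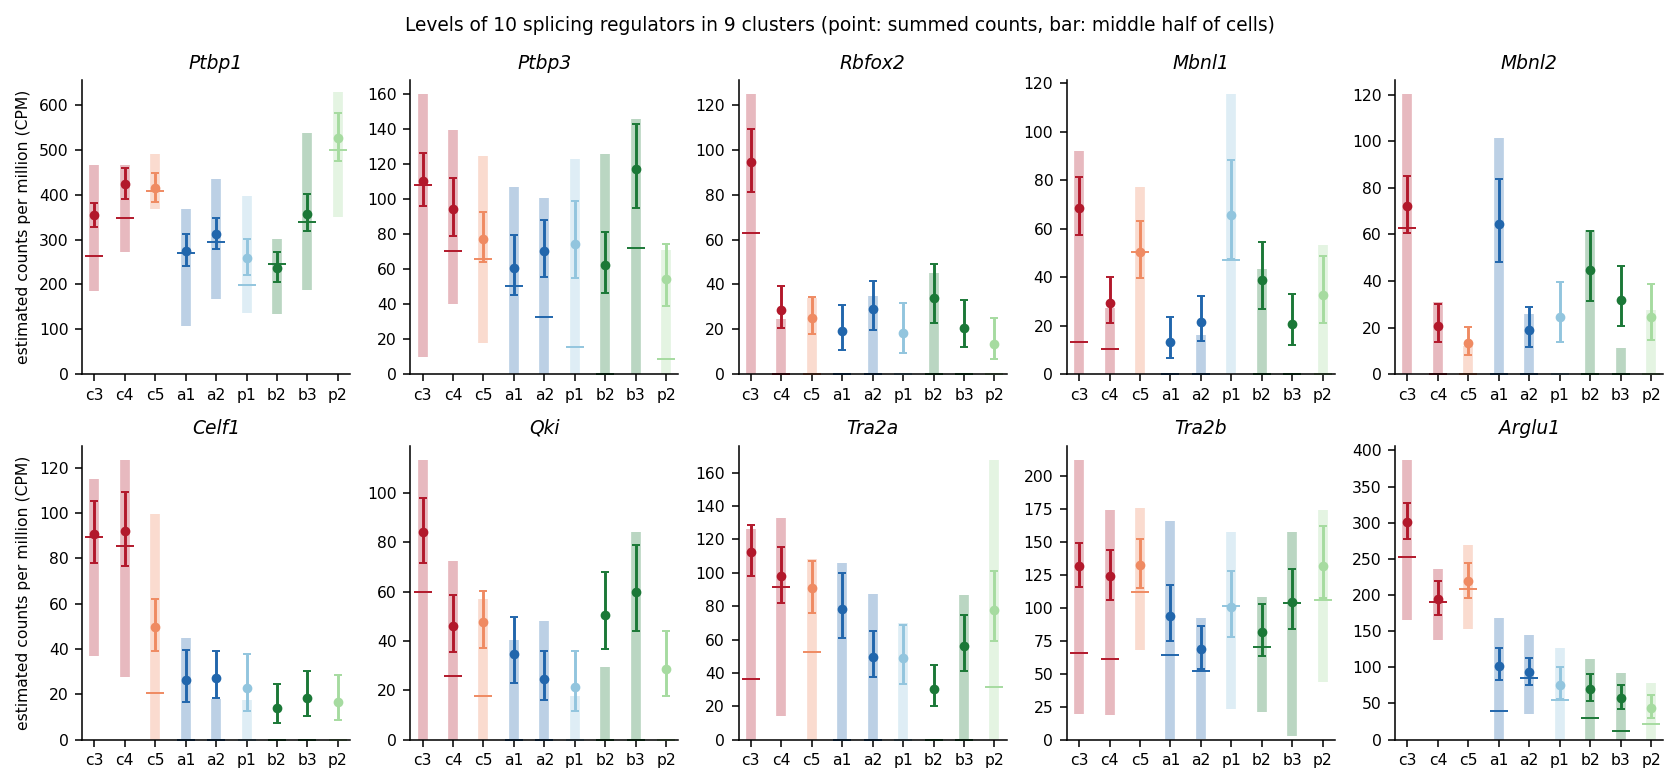
Levels of the 10 genes in the 9 clusters. Points give CPM from summed estimated counts with 95% Poisson intervals, pale bars the middle 50% of single cells and dashes the median cell; red stands for c3, c4 and c5, blue for a1, a2 and p1, and green for b2, b3 and p2. Celf1 and Arglu1 lie higher in c3 and c4 than in each of the 6 YS clusters, whereas Ptbp1 has its highest level in p2.

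Ptbp1 (chr10:79854427-79864771, plus strand, GRCm38) encodes the polypyrimidine tract-binding protein that represses neuronal and muscle exons in most other cells. It stood at 354, 423 and 415 CPM in c3, c4 and c5, at 275, 312 and 259 in a1, a2 and p1, and at 236, 358 and 526 in b2, b3 and p2. Its highest level over its lowest was 2.23-fold, and only p2 and the next cluster, c4, had intervals that did not overlap among neighbours in the order. HE-AGM cells lay between 40.0 and 1111 CPM with a median of 308, HE-YSA cells between 0 and 1091 with 282, and HE-YSP cells between 0 and 770 with 265, so the 3 populations overlapped. The ratio of HE-AGM to HE-YSA was 0.37 on the log2 scale (95% counting interval 0.23 to 0.52; 0.21, 0.12 and 0.67 in runs 1, 2 and 3), under 2-fold. The neuronal paralog Ptbp2, which Ptbp1 is known to repress, stood at 4.51, 5.77 and 2.39 CPM in HE-AGM, HE-YSA and HE-YSP.

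The isoforms of Ptbp1 differed more than its level did. The protein-coding Ptbp1-215 took 51.1% of its counts in HE-AGM (48.3 to 53.9) against 30.2% in HE-YSA (26.4 to 34.2) or 29.1% in HE-YSP (25.2 to 33.4). It was higher in HE-AGM in each run, by 26.5, 20.99 and 15.3 points against HE-YSA and by 15.1, 28.3 and 26.2 points against HE-YSP. By cluster it took 51.3, 50.9 and 47.9% in c3, c4 and c5 and between 27.4 and 38.3% in the 6 YS clusters. Averaged over cells with the gene rather than over counts, its share was 51.7, 31.2 and 27.5% in HE-AGM, HE-YSA and HE-YSP, much like the shares of summed counts. The other main coding isoform, Ptbp1-216, was lower in HE-AGM (16.7% against 29.8 and 25.9%), and the retained-intron transcript Ptbp1-213 was higher (13.8% against 4.35 and 7.88%). NanoCount divides reads that fit several transcripts, and 76.6% of all Ptbp1 counts lie in estimates that are not within 1e-06 of a whole number, so these shares are less certain than their counting intervals say.

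Skipping of a 34-base exon of Ptbp1 is a known switch that leads to NMD. Its sequence is shown in capitals with 10 bases of the neighbouring exons in lower case (chr10:79862014-79862047, plus strand, GRCm38, GENCODE M21):
Ptbp1 34-base exon: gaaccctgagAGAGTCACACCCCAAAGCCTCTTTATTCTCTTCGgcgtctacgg
The exon has no multiple of 3 bases, so leaving it out shifts the reading frame. Ptbp1-201, the main transcript that skips it and that is annotated as NMD, took 5.67% of counts in HE-AGM (4.45 to 7.06) against 10.8% in HE-YSA (8.39 to 13.7) or 10.7% in HE-YSP (8.14 to 13.8). In the YS populations it came from few cells (15 of 49 and 13 of 44 cells with the gene), and without the cell with the most of it the shares were 7.66 and 5.97%. Ptbp1-215 could not be matched by length to the annotation in which the exon was located, so 58.3% of the Ptbp1 counts have a known exon structure here. Among isoforms that hold or skip the exon, 82.4% held it in HE-AGM (78.3 to 85.8) against 80.1% in HE-YSA (75.1 to 84.3) or 79.4% in HE-YSP (74.1 to 84.1), intervals that overlap.

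Ptbp3 (chr4:59471868-59549364, minus strand, GRCm38), a paralog of Ptbp1 known from blood cells, stood at 110.4, 94.2 and 77.5 CPM in c3, c4 and c5, at 60.7, 70.4 and 74.6 in a1, a2 and p1, and at 62.3, 117 and 54.6 in b2, b3 and p2. No neighbours in the order of its levels had separate intervals. The ratio of HE-AGM to HE-YSA was 0.64 (0.35 to 0.95), with 0.56, 0.31 and 0.85 in the 3 runs, and that to HE-YSP was 0.21 (-0.06 to 0.50), which changed sign in run 2 (-0.29). Its coding isoform Ptbp3-201 took 47.8% of counts in HE-AGM (42.4 to 53.2) against 20.6% in HE-YSA (13.9 to 28.8) or 17.4% in HE-YSP (11.7 to 24.5), and was higher in HE-AGM in each run. Ptbp3-202, whose annotated 3′ end lies 3391 bases before the most distal one, went the other way, at 6.38, 16.7 and 24.2%. Isoforms that end within 500 bases of the most distal end made up 90.4% of Ptbp3 in HE-AGM (86.8 to 93.3) against 50.8% in HE-YSA (41.7 to 59.8) or 52.3% in HE-YSP (44.0 to 60.6). Protein-coding transcripts made up 99.4, 91.3 and 96.0% of Ptbp3 in HE-AGM, HE-YSA and HE-YSP, so the isoforms that differed were coding ones, and estimates that are not whole hold 2.66% of its counts.

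Over all genes with at least 50 counts in both populations, the annotated length weighted by isoform counts exceeded that of HE-YSA for 70.1% of 3339 genes in HE-AGM, by a median of 3.49%, and that of HE-YSP for 71.3% of 2982 genes, by 3.35%. Between the 2 YS populations it was longer in HE-YSP for 49.2% of 2800 genes, with a median of 0. Of the 10 regulators, 8 were longer in HE-AGM against each YS population. The part of this difference in the isoform shares of Ptbp3 and the other regulators was not tested, and it cannot be told apart from the cDNA project.

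Rbfox2 (chr15:77078990-77307004, minus strand, GRCm38) encodes an RBFOX protein used in many tissues outside the brain and muscle. It stood at 94.4 CPM in c3, at 28.8 in c4 and 25.2 in c5, at 19.04, 29.1 and 18.3 in a1, a2 and p1, and at 34.1, 20.7 and 13.7 in b2, b3 and p2. The early AGM cluster alone was high, and its interval was separate from that of the next cluster, b2. In c3, 16 of 29 cells had at least 1 count and the median cell was at 62.8 CPM, whereas in a1, a2, b2 and b3 the median cell was at 0. The HE-AGM to HE-YSA ratio was 1.43 (0.98 to 1.93), with 1.31, 1.03 and 1.57 in the 3 runs, and that to HE-YSP was 1.27 (0.82 to 1.77), with 0.29 in run 1 against 1.44 and 2.00 in runs 2 and 3. Its paralogs Rbfox1 and Rbfox3, known from neurons and muscle, had 0 counts in all kept cells, which allows up to 3. Rbfox2-203 led with 76.7% of the counts in HE-AGM (70.6 to 82.1) and 74.5% in HE-YSA (59.7 to 86.1), and the 56.5% in HE-YSP (41.1 to 71.1), from 46 counts, overlapped both in its interval.

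Muscleblind-like proteins, which oppose CELF proteins at many exons and bring in adult splicing patterns in muscle and heart, are encoded by Mbnl1 and Mbnl2. Mbnl1 (chr3:60472830-60629750, plus strand, GRCm38) stood at 68.6, 29.5 and 50.3 CPM in c3, c4 and c5, at 13.1, 21.6 and 65.5 in a1, a2 and p1, and at 38.8, 20.7 and 32.8 in b2, b3 and p2. Its HE-AGM to HE-YSA ratio was 1.53 (1.01 to 2.13), but 0.60 in run 2 alone, and its ratio to HE-YSP was 0.80 (0.34 to 1.29). HE-YSA was the low one, at 17.8 CPM against 29.9 in HE-YSP and 52.3 in HE-AGM. It has 25 annotated isoforms and no more than 174 counts in an HE population, and estimates that are not whole hold 40.4% of its counts. In HE-YSA the retained-intron transcript Mbnl1-225 took 12 of 34 counts, from 5 cells, against 5.75% in HE-AGM. The third paralog, Mbnl3, stood at 1.20, 4.72 and 11.96 CPM in HE-AGM, HE-YSA and HE-YSP. These values rest on 4, 9 and 20 counts, under the minimum for a call, and all 20 counts of HE-YSP lay in b2.

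Mbnl2 (chr14:120275669-120431697, plus strand, GRCm38) stood at 72.2, 20.9 and 13.2 CPM in c3, c4 and c5, at 64.2, 18.8 and 24.4 in a1, a2 and p1, and at 44.7, 31.7 and 24.6 in b2, b3 and p2. The 3 early HE clusters were the 3 highest. Its level hardly differed between tissues: the HE-AGM to HE-YSA ratio was 0.38 (-0.02 to 0.80) and changed sign in run 3 (-0.16), and the ratio to HE-YSP was 0.40 (-0.02 to 0.85) and changed sign in run 3 (-0.05), with cells of matched depth (-0.07) and with YS cells of E10.5 only (-0.22). Its isoforms did differ. The coding isoform Mbnl2-204 took 12.7% of counts in HE-AGM (7.86 to 18.4) against 40.5% in HE-YSA (29.3 to 52.6) or 62.5% in HE-YSP (49.5 to 74.3), and was lower in HE-AGM in each run against both.

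Mbnl2-204 skips a 54-base exon that the coding isoforms Mbnl2-201, 202 and 208 hold; in MBNL proteins an exon of this length is known to promote localization to the nucleus. The exon is shown in capitals with 10 bases of the neighbouring exons in lower case, and its length is a multiple of 3 (chr14:120395712-120395765, plus strand, GRCm38, GENCODE M21):
Mbnl2 54-base exon: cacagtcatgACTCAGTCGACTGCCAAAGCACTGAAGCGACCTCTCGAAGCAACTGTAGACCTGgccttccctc
Of the counts in isoforms that hold or skip it, 78.2% held it in HE-AGM (70.1 to 85.5) against 43.3% in HE-YSA (30.3 to 57.7) or 26.8% in HE-YSP (15.8 to 40.3). Estimates that are not whole hold 49.3% of Mbnl2 counts. Mbnl2-201, 202 and 205 had equal estimates in every kept cell, at 38.7 counts each in HE-AGM. In the annotation Mbnl2-205 starts downstream of the exon, so reads divided among these 3 do not tell whether the exon was held. Much of the HE-AGM share rests on such reads. The shares in runs 1, 2 and 3 were 83.0, 81.5 and 73.4% for HE-AGM, against 16.7, 55.0 and 48.9% for HE-YSA or 33.8, 25 and 21.3% for HE-YSP, so each run of HE-AGM lay above each run of both YS populations, though run 2 of HE-YSP rests on 6 Mbnl2 counts. The isoforms also differ in their ends: Mbnl2-201, 202 and 205 end within 2 bases of the distal end, and Mbnl2-204 and Mbnl2-208 end 2071 bases before it. Isoforms ending within 500 bases of the distal end made up 68.6% of Mbnl2 in HE-AGM (61.1 to 75.5) against 17.6% in HE-YSA (9.70 to 28.2) or 18.8% in HE-YSP (10.1 to 30.5). Between the 2 isoforms that share the proximal end, Mbnl2-208, which holds the exon, had 17.5 counts beside 21.5 of Mbnl2-204 in HE-AGM, whereas HE-YSA had 15 beside 30 and HE-YSP 7 beside 40. The exon and the end moved together, and their parts in the difference cannot be told apart.

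**Figure D3:**
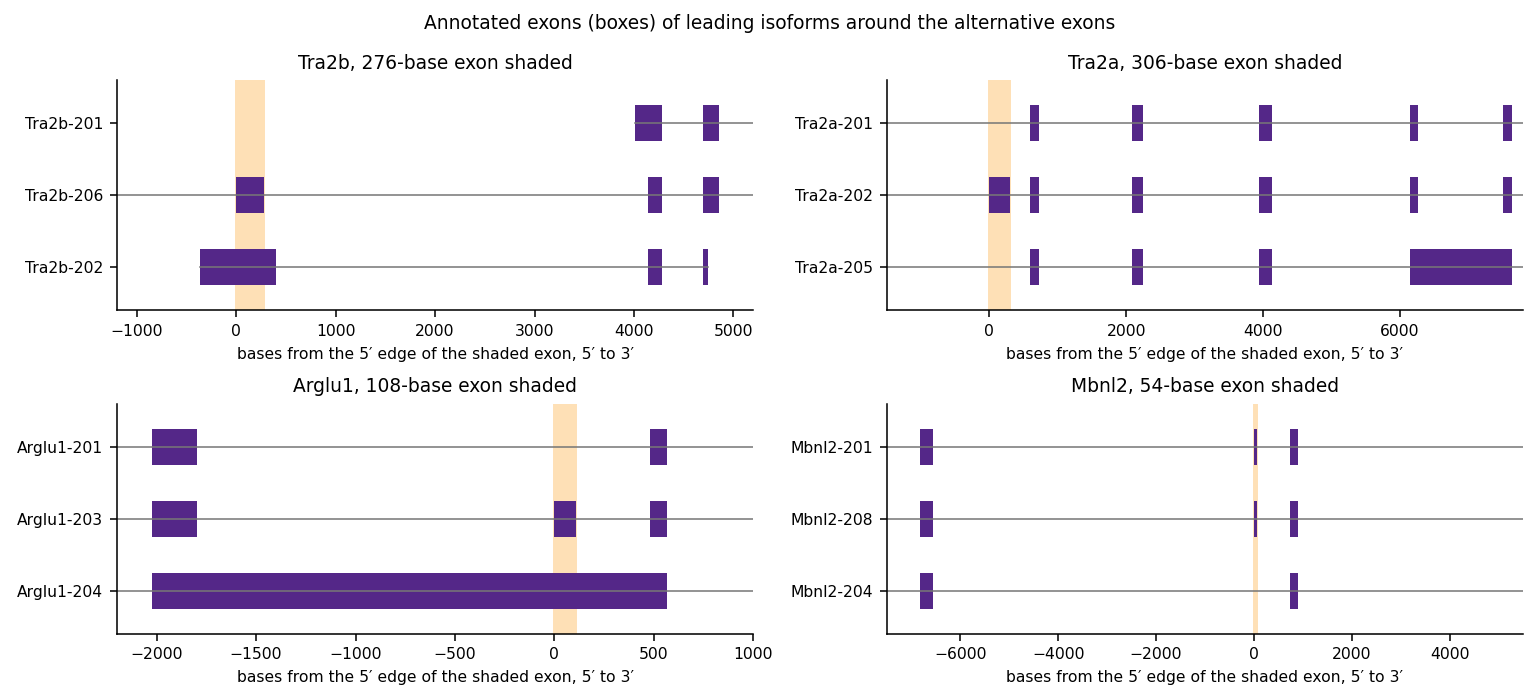
Annotated exons (boxes) of leading isoforms of Tra2b, Tra2a, Arglu1 and Mbnl2, drawn 5′ to 3′ in bases from the 5′ edge of the exon shaded in each panel. Tra2b-202 and Arglu1-204 hold the shaded exon inside a longer one, Tra2b-201 starts downstream of it, and Mbnl2-204 skips it.

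Celf1 (chr2:90940382-91019497, plus strand, GRCm38), whose protein binds GU-rich RNA and acts on both splicing and mRNA decay, had the largest ratios of the 10. It stood at 90.8, 92.1 and 49.7 CPM in c3, c4 and c5, at 26.2, 27.2 and 22.8 in a1, a2 and p1, and at 14.1, 18.3 and 16.4 in b2, b3 and p2. The intervals of c3 and c4 lay apart from that of c5 and from those of the YS clusters, and the interval of c5 overlapped those of a1 and a2. Per cell the median was 89.4 CPM in HE-AGM (range 0 to 250) and 0 in both YS populations (highest cells at 217 and 138). At least 1 count was found in 38 of 49, 13 of 52 and 9 of 49 cells, and in 31, 15 and 8 cells when each cell was thinned to 18000 counts, which is the same order. The ratio was 1.76 against HE-YSA (1.34 to 2.23; 0.92, 2.31 and 2.15 in the runs) and 2.48 against HE-YSP (1.93 to 3.12; 1.52, 2.02 and 3.73 in the runs). Its 14 isoforms could hardly be told apart, since 83.9% of its counts lie in estimates that are not whole. The transcript Celf1-213, with no defined coding sequence, took 29.4% in HE-YSA (17.5 to 43.8) against 8.06% in HE-AGM (5.39 to 11.9) and 0 of 27 counts in HE-YSP, and 20% in HE-YSA without the cell that held most of it.

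Celf2, the close relative of Celf1 in blood cells, was distributed differently, at 91.6, 54.6 and 79.6 CPM in HE-AGM, HE-YSA and HE-YSP and at 194, 184 and 158 in c5, p1 and p2. Celf3, Celf4 and Celf6, known from brain, had 0 counts in all kept cells, and Celf5 had 3.

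Qki (chr17:10202601-10319854, minus strand, GRCm38) encodes the STAR-family protein quaking, which is needed for the vessels of the YS. It stood at 84.1, 46.0 and 47.7 CPM in c3, c4 and c5, at 34.5, 24.4 and 21.3 in a1, a2 and p1, and at 50.5, 59.7 and 28.7 in b2, b3 and p2. HE-YSA was again the low one: HE-AGM was higher than it by 1.23 on the log2 scale (0.81 to 1.69; 0.96, 0.68 and 1.52 in the runs), and HE-YSP was higher than it by 0.93 (0.43 to 1.44) and in each run. The ratio of HE-AGM to HE-YSP was 0.30 (-0.05 to 0.67) and changed sign in run 2 (-0.45), with matched depth (-0.43) and with E10.5 only (-0.31). Of the other STAR proteins, Khdrbs1 had 18 counts in all kept cells, whereas Khdrbs2 stood at 699.8 CPM in HE-AGM against 129 in HE-YSA and 154 in HE-YSP (log2 ratios 2.44 and 2.18) and Khdrbs3 at 36.9 against 13.1 and 16.1 (1.47 and 1.17), each higher in all 3 runs; the last 2 were named after their values were seen. Qki-202, annotated as NMD, was the leading isoform of the 3 populations at 59.0% (52.3 to 65.5), 43.6% (30.3 to 57.7) and 51.1% (40.4 to 61.7). Its share differed more within each tissue than between them: 49.7% in c3 and 82.8% in c4, 27.6% in a1 and 61.5% in a2, and 30.2% in b2 and 69.4% in b3. The late cluster was the higher one in all 3 populations, from 26 to 163 counts a cluster, whereas the coding isoforms Qki-201 and Qki-206 were lower there, at 29.8 and 14.4% in c3 against 7.81 and 7.81% in c4. This split was picked out from the values themselves and not by a rule. In the annotation Qki-202 ends 3950 bases before the most distal end, and Qki-201 and Qki-206 end 7578 and 7588 bases before it. Splicing and transcript end therefore cannot be told apart in these shares.

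**Figure D4:**
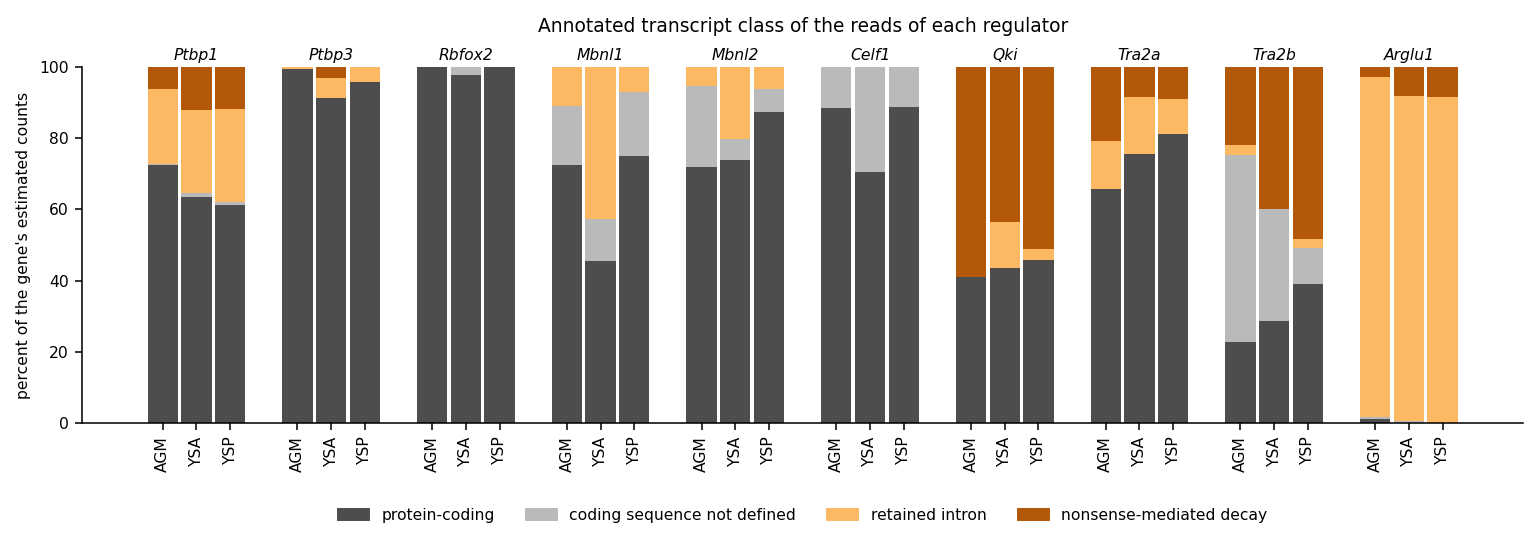
Share of each gene's estimated counts (percent) by annotated transcript class in HE-AGM, HE-YSA and HE-YSP. Rbfox2 and Ptbp3 consist almost wholly of protein-coding transcripts, Arglu1 almost wholly of retained-intron transcripts, and Tra2b mostly of classes without a full coding sequence.

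Tra2a and Tra2b encode the SR-like activators that bind GAA-rich exons. Both genes carry an exon with an early stop codon that their own proteins are known to bring in, and these exons are shown from their first base to the stop codon, which is in capitals (GRCm38, GENCODE M21; Tra2b at chr16:22259181-22259261 and Tra2a at chr6:49252965-49253108, both minus strand, the sequences read along the transcript):
Tra2b stop-carrying exon: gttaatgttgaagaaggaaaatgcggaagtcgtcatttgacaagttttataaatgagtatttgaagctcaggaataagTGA
Tra2a stop-carrying exon: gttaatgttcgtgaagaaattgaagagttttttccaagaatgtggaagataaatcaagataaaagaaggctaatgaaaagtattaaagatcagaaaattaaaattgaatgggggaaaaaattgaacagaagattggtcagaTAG
The whole exon has 276 bases in Tra2b and 306 in Tra2a. Counted on the transcript strand without overlap, GAA occurs 28 times in the first, or 10.1 times per 100 bases, and 32 times in the second, or 10.46 times. The median was 1.79 over 4571 annotated exons within 10 bases of the length of the Tra2b exon, of which 0.0438% had as many, and 1.68 over 3492 exons near the length of the Tra2a exon, of which 0.0573% had as many. Both sets were exons of coding and NMD transcripts and included the exon in question.

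Tra2a (chr6:49243924-49264033, minus strand, GRCm38) stood at 112, 97.8 and 90.7 CPM in c3, c4 and c5, at 78.5, 49.8 and 48.7 in a1, a2 and p1, and at 30.6, 56.0 and 77.8 in b2, b3 and p2. The 3 AGM clusters were the 3 highest, though no neighbours in the order had separate intervals. The HE-AGM to HE-YSP ratio was 1.30 (0.93 to 1.69; 1.61, 1.66 and 0.88 in the runs), and that to HE-YSA was 0.76 (0.46 to 1.08; 0.74, 0.36 and 1.02). Tra2a-202, the transcript with the 306-base exon, took 20.8% of counts in HE-AGM (16.8 to 25.5) against 8.34% in HE-YSA (4.10 to 14.9) or 9.03% in HE-YSP (4.00 to 19.01). The runs gave 16.3, 26.4 and 21.1% for HE-AGM, against 8.13, 7.90 and 8.95% for HE-YSA or 1.40, 23.2 and 7.50% for HE-YSP, where run 2 rests on 14 counts. In c3, c4 and c5 the share was 20.7, 21.2 and 17.1%, above the 5.56 to 13.4% of the YS clusters. The YS shares rest on 2.25 to 6.25 counts with the exon in each cluster. The interval of every YS cluster, such as that of b2 (0.95 to 25.1), overlapped that of c5 (10.95 to 24.1). Protein-coding Tra2a transcripts stood at 69.8 CPM in HE-AGM (61.3 to 79.6) against 47.1 in HE-YSA (38.0 to 58.1) or 35.0 in HE-YSP (26.3 to 44.8). Both the coding transcripts and the share with the stop-carrying exon were thus higher in HE-AGM, and 80.4% of the gene's counts lie in estimates that are not whole.

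Tra2b (chr16:22244549-22266005, minus strand, GRCm38) stood at 131, 124 and 132 CPM in c3, c4 and c5, at 93.8, 68.5 and 100.1 in a1, a2 and p1, and at 81.5, 104 and 132 in b2, b3 and p2. Its highest level over its lowest was 1.93-fold, the smallest spread of the 10. The HE-AGM to HE-YSA ratio was 0.68 (0.41 to 0.96) and that to HE-YSP 0.46 (0.20 to 0.74), higher in HE-AGM in each run. In HE-AGM 75 of the 427 counts came from 1 cell of c3, without which that cluster stood at 98.1 CPM.

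Most Tra2b counts were assigned to transcripts that are not annotated as protein-coding, but 53.0% of its counts lie in estimates that are not whole. The coding Tra2b-201 and the NMD Tra2b-206 share their later exons in the annotation, and they had 92.4 and 93.4 counts in HE-AGM. Reads that fit both were divided, so the class shares and the shares with the exon are less certain than their counting intervals say. The coding classes stood at 28.9 CPM in HE-AGM (23.4 to 35.2) against 22.8 in HE-YSA (16.3 to 30.4) or 36.1 in HE-YSP (27.4 to 46.2), so HE-AGM lay above HE-YSA and below HE-YSP in them, with intervals that overlap. The NMD transcript Tra2b-206, which holds the 276-base exon as an exon of its own, took 21.9% in HE-AGM (17.96 to 26) against 37.2% in HE-YSA (29.2 to 45.0) or 44.4% in HE-YSP (36.5 to 52.7). Tra2b-202, which holds it inside a longer exon and has no defined coding sequence, took 52.8% in HE-AGM (48.1 to 57.7) against 31.6% in HE-YSA (24.3 to 39.6) or 10.3% in HE-YSP (6.02 to 16.2). Together with rarer forms, isoforms with the exon made up 77.4% in HE-AGM (73.0 to 81.2) against 71.4% in HE-YSA (63.2 to 78.1) or 58.5% in HE-YSP (50.5 to 66.5). These shares include in their total Tra2b-201, the leading coding isoform, which starts downstream of the exon in the annotation, so that a read that began there says nothing on its use. Among isoforms that hold or skip the exon, 98.8, 100 and 98.9% held it in HE-AGM, HE-YSA and HE-YSP, and only 4, 0 and 1 counts skipped it, so the lower share of HE-YSP goes with a higher share of Tra2b-201 (38.2% against 21.6 and 28.6%) and is no measure of exon use. The Tra2b-202 share of HE-AGM was above that of HE-YSP by 34.5, 56.1 and 39.3 points in the runs, but above that of HE-YSA by only 3.43 and 4.70 points in runs 1 and 2 and by 48.6 in run 3. It came from 20 of the 39 HE-AGM cells with the gene, 8 of 35 HE-YSA cells and 6 of 33 HE-YSP cells, and averaged over those cells it was 36.98, 19.8 and 8.06%. In the annotation Tra2b-202 ends 9968 bases before the most distal end and Tra2b-206 ends 1913 bases before it. Splicing and transcript end therefore cannot be told apart in the shares of these isoforms.

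**Figure D5:**
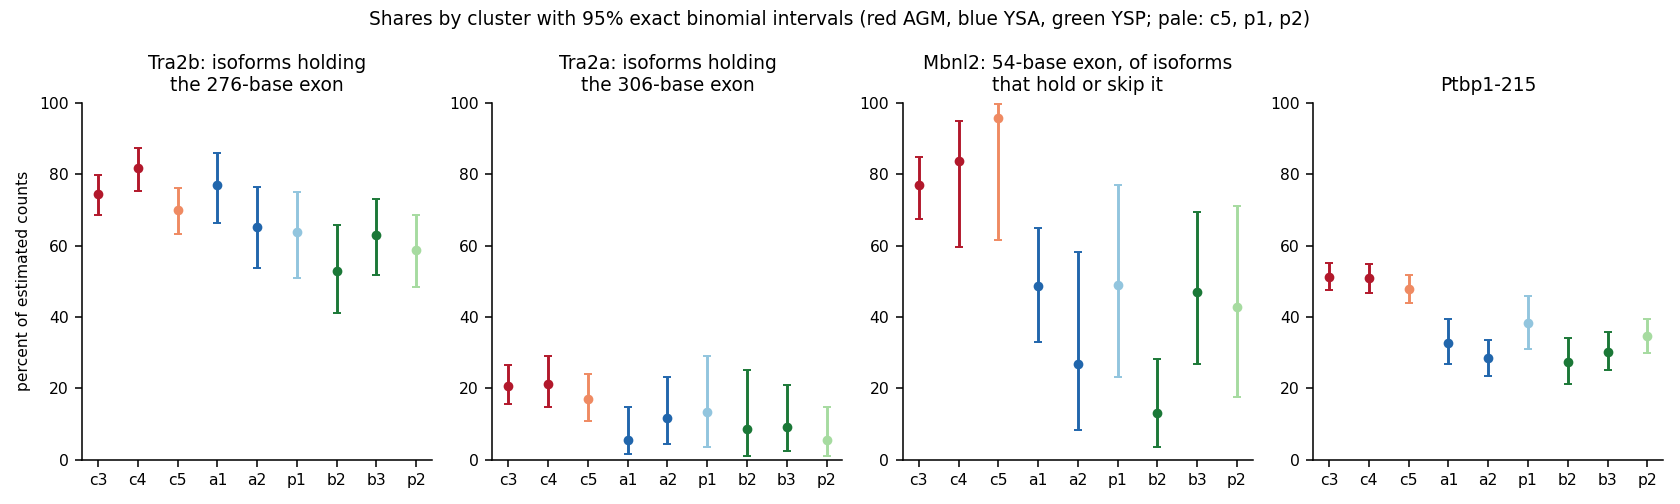
Percent of estimated counts by cluster with 95% exact binomial intervals: Tra2b isoforms holding the 276-base exon (of all Tra2b counts, Tra2b-201 included), Tra2a isoforms holding the 306-base exon, the Mbnl2 54-base exon among isoforms that hold or skip it, and Ptbp1-215. Red stands for AGM, blue for YSA and green for YSP clusters, paler for c5, p1 and p2; Ptbp1-215 lies at 47.9% or above in c3, c4 and c5 and at 38.3% or below in the YS clusters.

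Arglu1 (chr8:8665075-8690521, minus strand, GRCm38) encodes an arginine- and glutamate-rich protein known as a modulator of splicing and a coactivator of nuclear receptors. It stood at 301, 194 and 219 CPM in c3, c4 and c5, at 102.3, 93.0 and 76.2 in a1, a2 and p1, and at 70.5, 57.3 and 43.7 in b2, b3 and p2. Each AGM cluster lay above each YS cluster, and the intervals of c4, the lowest of the former, and a1, the highest of the latter, did not overlap. HE-AGM cells lay between 66.0 and 528 CPM with a median of 231, HE-YSA cells between 0 and 373 with 83.3, and HE-YSP cells between 0 and 360 with 27.2. It had at least 1 count in 49 of 49, 34 of 52 and 24 of 49 cells, and in 47, 34 and 23 after thinning to 18000 counts a cell. The ratio was 1.40 against HE-YSA (1.17 to 1.64; 1.43, 0.97 and 1.61 in the runs) and 2.00 against HE-YSP (1.71 to 2.31; 2.04, 2.01 and 1.89 in the runs), and its values against HE-YSP lay closest together between runs of the 10.

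Nearly all of this RNA was of the retained-intron class. Arglu1-204, which keeps a 2280-base intron (chr8:8681468-8683747, GRCm38) inside a 2590-base exon, took 95.7% of counts in HE-AGM (94.1 to 96.9) against 91.4% in HE-YSA (86.3 to 94.98) or 91.6% in HE-YSP (84.6 to 96.1). Within that intron lies an exon with an early stop codon that the NMD transcript Arglu1-203 uses on its own. It is shown from its first base to the stop codon, in capitals (chr8:8681862-8681948, minus strand, GRCm38, GENCODE M21, read along the transcript):
Arglu1 stop-carrying exon: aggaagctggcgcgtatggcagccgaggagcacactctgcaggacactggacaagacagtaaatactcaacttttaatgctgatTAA
Unlike those of the TRA2 genes, this 108-base exon holds 2 GAA, or 1.85 per 100 bases, beside a median of 1.98 over 34920 exons of like length, itself included, of which 58.4% had as many. Arglu1-203 took 2.69% of counts in HE-AGM (1.71 to 4.01) against 8.11% in HE-YSA (4.61 to 13.02) or 8.41% in HE-YSP (3.92 to 15.4), and the difference from HE-YSP changed sign in run 3. The protein-coding transcript had 10 of 854 HE-AGM counts, 0 of 185 HE-YSA counts and 0 of 107 HE-YSP counts, where a count of 0 allows up to 3. The higher level in HE-AGM was therefore a higher level of the retained-intron transcript, at 245 CPM against 88.7 and 58.6. All counts of this gene are whole, so no read was divided between isoforms. Arglu1-204 ends 1501 bases before the coding Arglu1-201 in the annotation, so reads that end at the nearer site favor it whatever their splicing, and the 2 cannot be told apart here.

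By the criterion of an isoform fraction that differs by more than 0.1 in genes with at least 50 counts in both populations, 7 of 8 regulators differed between HE-AGM and HE-YSA, where 58.6% of 3339 genes did, and 6 of 8 between HE-AGM and HE-YSP, where 55.9% of 2982 did. With cells of matched depth only, 3 of the 5 that kept enough counts differed between HE-AGM and HE-YSA and 5 of 6 between HE-AGM and HE-YSP, and with a minimum of 200 counts 1 of the 1 left differed in each. Between HE-YSP and HE-YSA 3 of 7 differed, where 25.2% of 2800 genes did; these were Mbnl2, Qki and Tra2b. Against HE-YSP the call of Mbnl1 rested on Mbnl1-202, all of whose 8 counts in HE-YSP came from 1 cell. Arglu1 was the one tested member without such a difference between HE-AGM and HE-YSA. The study, from its short reads, names Arglu1 as an example of differential exon use between HE-AGM and YS HE. The limit on isoform fractions used here is a different measure. Of the members past the limit, those that kept their direction in each run against HE-YSA were Ptbp1, Ptbp3, Mbnl2, Celf1, Tra2a and Tra2b, and the exception was Qki, with -3.51 points in run 1 against 8.33 and 40.8 in runs 2 and 3.

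The summed share of protein-coding transcripts moved less. It differed by more than 10 points between HE-AGM and HE-YSA for 1 of 8 regulators, where 30.9% of 2903 genes did: Celf1, at 88.5 against 70.6%. Between HE-AGM and HE-YSP it did so for 4 of 8, and for 2 with matched depth, where 29% of 2582 genes did in all cells. Ptbp1 was higher in HE-AGM (72.4 against 61.2%), and Mbnl2 (71.8 against 87.5%), Tra2a (65.7 against 81.2%) and Tra2b (22.6 against 38.9%) were lower. For Mbnl2, Mbnl2-205, with no defined coding sequence, took 22.9% in HE-AGM. Its estimate equals those of the coding Mbnl2-201 and 202 in every kept cell, so the Mbnl2 coding share depends on how tied reads were divided. Between HE-YSP and HE-YSA it did so for 2 of 7, where 11.9% of 2423 genes did: Mbnl2 (87.5 against 73.9%) and Tra2b (38.9 against 28.6%) were higher in HE-YSP. No direction was shared by all members in these comparisons.

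From early to late HE, which asks what changes as endothelium commits to blood, Mbnl2 and Arglu1 had less CPM in the late cluster of all 3 populations, and Mbnl2 was past 2-fold in HE-AGM and HE-YSA. For Arglu1 the log2 ratio was only -0.14 in HE-YSA (-0.57 to 0.30; 0.53, -0.87 and 0.21 in the runs). In HE-YSP it was -0.30 (-0.88 to 0.27; -1.32, -0.54 and 0.28 in the runs), so its sign was not stable in the YS populations. In HE-AGM 3 of 10 regulators were more than 2-fold lower in the late cluster and none higher, where 18.1% of 7514 genes were past 2-fold (450 higher, 907 lower). These were Mbnl2 (log2 ratio -1.77, interval -2.42 to -1.21; -2.92, -0.39 and -2.05 in the runs), Rbfox2 (-1.70, -2.25 to -1.21; -3.75, -0.91 and -1.53) and Mbnl1 (-1.21, -1.76 to -0.70; -0.71, -2.38 and -1.15). Qki (-0.86) and Arglu1 (-0.63) were also lower in each run, but by less than 2-fold. In HE-YSA 1 of 8 tested was lower, Mbnl2 (-1.75, -2.59 to -1.01; -1.36, -1.17 and -2.08), where 12.8% of 4680 genes were past 2-fold. In HE-YSP 0 of 8 were past 2-fold, where 17.1% of 4278 genes were. There Mbnl2 was at -0.49 (-1.27 to 0.26), and Ptbp3 (0.90), Tra2a (0.86) and Ptbp1 (0.60) were higher in the late cluster in each run. The differences between populations in these ratios were not tested. Single cells weigh on the low values: without the cell with most counts, Rbfox2 stood at 16.8 CPM in c4 in place of 28.8, and Mbnl2 at 15.2 in place of 20.9. The summed endothelial markers moved with Mbnl2, from 1829 to 845 CPM in HE-AGM, 1569 to 876 in HE-YSA and 1646 to 802 in HE-YSP, and the part of cell identity in its ratios was not tested.

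Among the steps from late HE to the cells further along, Mbnl1 was higher in p1 than in a2, at 65.5 against 21.6 CPM (log2 1.59, 0.84 to 2.40; 2.45, 1.43 and 0.72 in the runs), the 1 call among 6 tested, where 16.8% of 4388 genes were past 2-fold. In p2 against b3, 2 of 6 tested were lower, where 11.6% of 4113 genes were past 2-fold: Ptbp3 (-1.09, -1.67 to -0.55, lower in each run) and Qki (-1.04, -1.87 to -0.29). Qki changed sign in run 3 (0.40), and 12 of its 21 counts in p2 came from 1 cell. Ptbp1 was higher in p2 than in b3 in each run (0.56, 0.33 to 0.78), by less than 2-fold. In c5 against c4, 0 of 9 were past 2-fold, where 17.4% of 6632 genes were; the largest ratios were those of Celf1 (-0.89, -1.32 to -0.47) and Mbnl1 (0.76, 0.21 to 1.36), and both changed sign in 1 run.

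A list of 38 further splicing regulators gives the setting. Of those with enough counts, 9 of 21 were more than 2-fold higher in HE-AGM than in HE-YSA, where 41.3% of all genes were past 2-fold, and 9 of 20 than in HE-YSP, where 44.3% were, so both counts lay near the background. None was lower in either, and 0 of 17 differed between the YS populations, where 13.1% of all genes did. The largest ratios were those of Esrp2, an epithelial splicing regulator with 60 counts in HE-AGM (18.02 CPM) and 0 in both YS populations, hence at least 11.4-fold and 10.0-fold higher with 3 counts as the floor over each YS population, of Khsrp (157 against 15.7 and 22.7 CPM), of Raver1, a partner of PTB (49.9 against 6.82 in HE-YSA), and of Msi2, a regulator of blood stem cells (34.8 against 4.19 in HE-YSP). Between late and early HE the list had 2 of 20 higher and none lower in HE-AGM (Esrp2 and Msi2; 18.1% of all genes past 2-fold), 1 of 13 higher in HE-YSA (Celf2; 12.8%) and 2 of 13 higher in HE-YSP (Celf2 and Rbm38; 17.1%), so none of its tested genes was past 2-fold in the direction of Mbnl1, Mbnl2 and Rbfox2. In the further steps 1 of 20 was lower in c5 (Tia1; 17.4% of all genes past 2-fold), 1 of 12 higher and 1 lower in p1 (Celf2 and Rbm10; 16.8%), and 0 of 12 differed in p2 (11.6%); the genes of these steps were named after their values were seen.

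Across the 9 clusters, the genes whose levels ran most like those of the members, by Pearson's r of log2(CPM + 1) among 6011 genes with at least 200 counts, were M6pr (r = 0.978) and Rnf7 (0.965) for Celf1, Ccdc85c (0.970) and Gm29216 (0.967) for Arglu1, Snx9 (0.967) and Oxsr1 (0.960) for Tra2a, Prps1 (0.955) and Ubtf (0.938) for Ptbp1, and Iqgap1 (0.945) and Cdk11b (0.940) for Rbfox2. They were E2f4 (0.927) and Rreb1 (0.923) for Tra2b, Rbms1 (0.912) and Luzp1 (0.884) for Mbnl2, Nsd2 (0.911) and Med10 (0.907) for Qki, Camk2a (0.901) and Ankrd49 (0.878) for Mbnl1, and Zfp423 (0.889) and Usp22 (0.865) for Ptbp3. With 9 points that share tissue, depth and cDNA project, these values describe the profiles only.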

How the data were processed

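Nanopore libraries of single cells were analysed. Per the methods, basecalling used Dorado, trimming bbduk, and chimera removal YACRD, then porechop; minimap2 (2.26) mapped the reads to the GENCODE transcriptome with secondary alignments, from which NanoCount gave 1 estimate a transcript and cell. These values, which the authors deposited as estimated counts, are neither normalized nor length-scaled and need not be whole. The filter on library size (1 median absolute deviation below the median of 38780) was applied after the methods and kept cells with totals from 18131 to 125339. The authors' DESeq2 (1.40.2, in R 4.3.0) results were not used.

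Counts were summed over isoforms and over the cells of each group, whose names come from the labels, and divided by the group's total (CPM). Ratios had 0.5 counts added, needed 50 counts in both groups together and were called past 2-fold; isoform and coding shares needed 50 counts in each population and were called past 0.1 and 10 points. No model was fitted, and size factors were computed over all genes. Estimated counts were rounded for thinning, intervals and size factors. Exons, loci and sequences came from GENCODE M21 (GRCm38), in which 115 of the 116 transcripts matched by identifier and length; the files use a later release, and no coordinate was converted.

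The regulators named were the 10 members and their isoforms with at least 10% of counts in a population, family members and the 3 largest ratios of the further list past 2-fold in each comparison of HE populations, and the 2 genes most like each member. The members and lists were chosen with earlier results of these data known. The calls were tested on simulated counts with known folds and isoform swaps. Alternatives covered the cell filter, scaling, limits, single runs, depth, stage, cell weights and left-out cells. The work used Python 3.11.15, numpy 2.4.6, pandas 2.3.3, scipy 1.17.1, matplotlib 3.10.9 and R 4.3.3, with DESeq2 1.42.0 and edgeR 4.0.16 for size factors only.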

Additional observations from a re-analysis of the deposited data

How the results depend on the processing

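Each count of regulators past a limit was recomputed under alternative settings: 115 of 174 such counts stayed within 1.5 times the main count, 59 moved beyond it and 0 turned direction; of the single-gene ratios, 388 of 450 stayed within their counting interval, 62 moved and 0 reversed while called. The setting without the cell with the highest count of a gene in each group was chosen after seeing the data. In single nanopore runs fewer genes reach the count minimum, by construction; the cause of the other moves was not tested. Between HE-AGM and HE-YSA, 2 regulators in place of 5 were past 2-fold in run 2 alone, 8 at 1.5-fold and 3 with matched depth (totals from 30000 to 60000). Between HE-YSP and HE-YSA, in place of 0, the count was 2 in run 2 alone, 4 at 1.5-fold, 3 with E10.5 cells only, and 1 each with the cell filter on the log scale, equal weight per cell, matched depth, or without the 3 YS cells of AGM libraries. From early to late, the count was 5 in place of 3 at 1.5-fold in HE-AGM. In HE-YSA, in place of 1, it was 0, 0 and 0 in runs 1, 2 and 3 alone and 2 at 1.5-fold, and in HE-YSP, in place of 0, 4 at 1.5-fold and 1 without the highest cell. In c5, in place of 0, it was 2, 1 and 1 in the runs alone, 2 at 1.5-fold and 1 without the highest cell. In p1, in place of 1, it was 0, 0 and 0 in the runs alone. In p2, in place of 2, it was 1 with no cell filter, 0, 0 and 1 in the runs alone and 1 without the highest cell. Regulators with an isoform past 0.1 numbered, between HE-AGM and HE-YSA, 1, 1 and 2 in the runs alone, 3 with matched depth and 1 with a minimum of 200 counts (main 7); between HE-AGM and HE-YSP, 1, 1 and 3 in the runs alone and 1 with 200 counts (main 6); and between HE-YSP and HE-YSA, 1 in run 1 alone, 0 in run 2 alone and 0 with 200 counts (main 3). Those with a coding share past 10 points numbered, between HE-AGM and HE-YSA, 0 with 200 counts, 0 without the highest cell and 0 at 20 points (main 1). Between HE-AGM and HE-YSP they numbered 1, 1 and 1 in the runs alone, 2 with matched depth, 1 with 200 counts and 0 at 20 points (main 4). Between HE-YSP and HE-YSA they numbered 0, 0 and 0 in the runs alone, 0 with matched depth, 1 without the 3 YS cells of AGM libraries, 0 with 200 counts, 0 without the highest cell and 0 at 20 points (main 2). DESeq2 size factors shifted the ratios of HE-AGM to HE-YSA and HE-YSP by -0.15 and -0.19 and TMM factors by -0.09 and -0.09, and all 10 regulators stayed above 0 in both. No paired analysis was possible because each cluster is 1 sample and no embryo links cells of different groups. Depth limits the isoform shares of Rbfox2, Mbnl1 and Celf1 in the YS populations most, at 27 to 51 counts a gene.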
